A study of Mus musculus with 4 samples.

Results

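The genes described here encode the MYC, MAX and ChREBP network, and they were chosen by name as 10 rows of the deposited count table, out of 23420 genes. Of the 10 names, 9 were found as written, and Mycl was found under its older symbol Mycl1, which RefSeq lists as a synonym. All 10 passed the filter on low counts, Mycl only through its KO-labelled libraries. RNA had been measured in 4 libraries of sorted mouse pancreatic β-cells. The 2 libraries labelled Bmal1KO (KO) came from Bmal1KO/DTA mice, and the 2 labelled Bmal1Het (heterozygous) came from Bmal1+/-DTA mice. Both groups carry DTA, the diphtheria toxin A chain, and both received doxycycline for 10 days to ablate most β-cells. The cells measured are those present after that treatment, and counts per gene do not tell whether they survived it or formed since. No group with intact Bmal1 or without ablation is part of the comparison, and the promoters that drive DTA and the Bmal1 deletion, the ages of the mice and how many animals made up a library are not given in the labels. The p-values therefore measure library-to-library spread only, and that spread may be technical.

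The network is a set of basic helix-loop-helix leucine zipper proteins that bind DNA as pairs. MYC, MYCN and MYCL each pair with MAX and activate genes of growth and ribosome production. MXD1, MXI1, MXD3 and MXD4 also pair with MAX, but recruit SIN3 and histone deacetylases and repress, so MAX is the shared partner of both arms. In the neighbouring branch MLX pairs with ChREBP (gene Mlxipl) or with MondoA (gene Mlxip), which sense glucose metabolites and drive genes of glycolysis and lipid synthesis. In β-cells ChREBP is known as a mediator of the response to high glucose, and MYC as a driver of proliferation that at high levels costs β-cell identity.

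The pairs of this network bind the E-box, spelled CACGTG, which is also a site of the BMAL1 and CLOCK pair, and the windows below are shown because they hold that site close to the start of a network gene. RefSeq promoters (GRCm38.p6, 250 bases before to 50 after each start) were found for 9 of the 10 members, all but Myc, 12 promoters in all. The letters CACGTG, which read the same on both strands, occurred in 4 of the 12 promoters, against 7.15% of 32851 promoters in the same table. In Max the match began 3 bases before the start site (window chr12:76962226-76962271, minus strand), in Mxd4 it began 219 bases before (chr5:34187904-34187949, minus strand), in Mlx 40 bases before (chr11:101087230-101087275, plus strand) and in Mlxipl 98 bases before (chr5:135089772-135089817, plus strand, the upstream one of 2 RefSeq starts). Capitals mark the E-box, with 20 bases on either side, 5′ to 3′ on the strand of the gene.
Max: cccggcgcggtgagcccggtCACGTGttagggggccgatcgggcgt
Mxd4: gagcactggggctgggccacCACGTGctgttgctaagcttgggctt
Mlx: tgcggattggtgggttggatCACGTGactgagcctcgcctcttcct
Mlxipl: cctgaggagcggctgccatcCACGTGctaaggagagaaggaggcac
The 4 genes with the match are those of the shared partners, of 1 repressor and of ChREBP. None of these 4 passed the test described next, but 9 of the 10 members did not, and only 2.54% of all tested genes passed. This tells nothing about the match, and the values follow by role. The match is a description of letters and not a measured binding site.

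Library totals were 32819576 and 31056116 counts for the KO label and 38020488 and 34776920 counts for the heterozygous label. Levels are given as CPM (counts relative to the library total) scaled by TMM, a normalization that trims the genes with the most extreme ratios, and levels of different genes are compared only after division by exon length (RPKM). Differences were tested with edgeR's quasi-likelihood test over all 14649 genes that passed the filter, with Benjamini-Hochberg adjustment at 0.05. Between 15.5% and 19.5% of each library's counts fell on Ins2, an insulin gene, and the 8 β-cell markers were above 0 in every library. Of these 8 markers, 1 fell and 7 did not pass, where 1.34% of all tested genes fell. In 5 of them both KO-labelled libraries were lower than both heterozygous ones, as in 23.8% of all tested genes. The list median was -0.37 on the log2 scale. The marker that fell was Ucn3, a peptide gene of mature β-cells. It was at 52.9 and 89.1 CPM under the KO label and 269.8 and 314 CPM under the heterozygous label. Its log2 fold change was -2.04 (SE 0.25, adjusted p = 0.0160 by edgeR). Of the 7 others, the β-cell transcription factors Mafa and Pdx1 had the lowest log2 fold changes. These were -0.82 (adjusted p = 0.333 by edgeR) and -0.52 (adjusted p = 0.145). Mafa in KO replicate 2 (105.5 CPM) lay close to heterozygous replicate 1 (107.7 CPM). Ins1 and Nkx6-1 were at -0.38 and -0.35, Slc2a2 was at -0.00075, and Ins2 and Iapp were positive, at 0.10 and 0.18. Arntl, the gene of BMAL1, was at 75.8 and 65.6 CPM in the KO-labelled libraries and at 23.0 and 14.98 CPM in the heterozygous ones, a log2 fold change of 1.89 (SE 0.24, adjusted p = 0.0175 by edgeR). The targeted gene thus had more RNA under the KO label, gene-level counts do not show whether a deleted part is missing, and the directions below are those of the libraries as labelled. Summed markers of other cells also differed between libraries. The 10 stromal markers summed to 136 and 376 CPM under the KO label and to 60.8 and 20.9 CPM under the heterozygous label, and Pdgfra was at 0 in both heterozygous libraries. The 12 immune markers summed to 308 and 1011 CPM under the KO label, against 320 and 375 CPM. The 10 acinar markers summed to 200.1 and 70.1 CPM, against 61.0 and 17.5 CPM. The part of these cells in the results below was not tested. In RNA from many cells, fewer cells that express a gene and less of its RNA per cell cannot be told apart.

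Of the 10 members, 1 was lower in the KO-labelled libraries, 0 were higher and 9 did not pass. Over all tested genes 1.34% were lower and 1.20% higher, 2.54% in either direction. At an unadjusted p under 0.05, 1 member was higher and 2 were lower by edgeR, where 16.9% of all tested genes had such a p in either direction. DESeq2, run without this filter on every gene with a count above 0, called 1 member higher and 1 lower, against 624 and 562 of all genes. Limma-voom and limma-trend each called 0 higher and 1 lower. Of 14649 genes limma-voom called 164 higher and 219 lower, and limma-trend called 234 higher and 262 lower. The member that fell was Mxd3. The libraries of both labels did not overlap for 6 members, 3 above and 3 below under the KO label, where the shares over all tested genes were 25.3% above and 23.8% below, 49.0% together. Of those above, Mycl passed the filter only through the KO-labelled libraries, where it is high. The median log2 fold change of the members was -0.035, and that of all tested genes was 0.024.

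**Figure D1:**
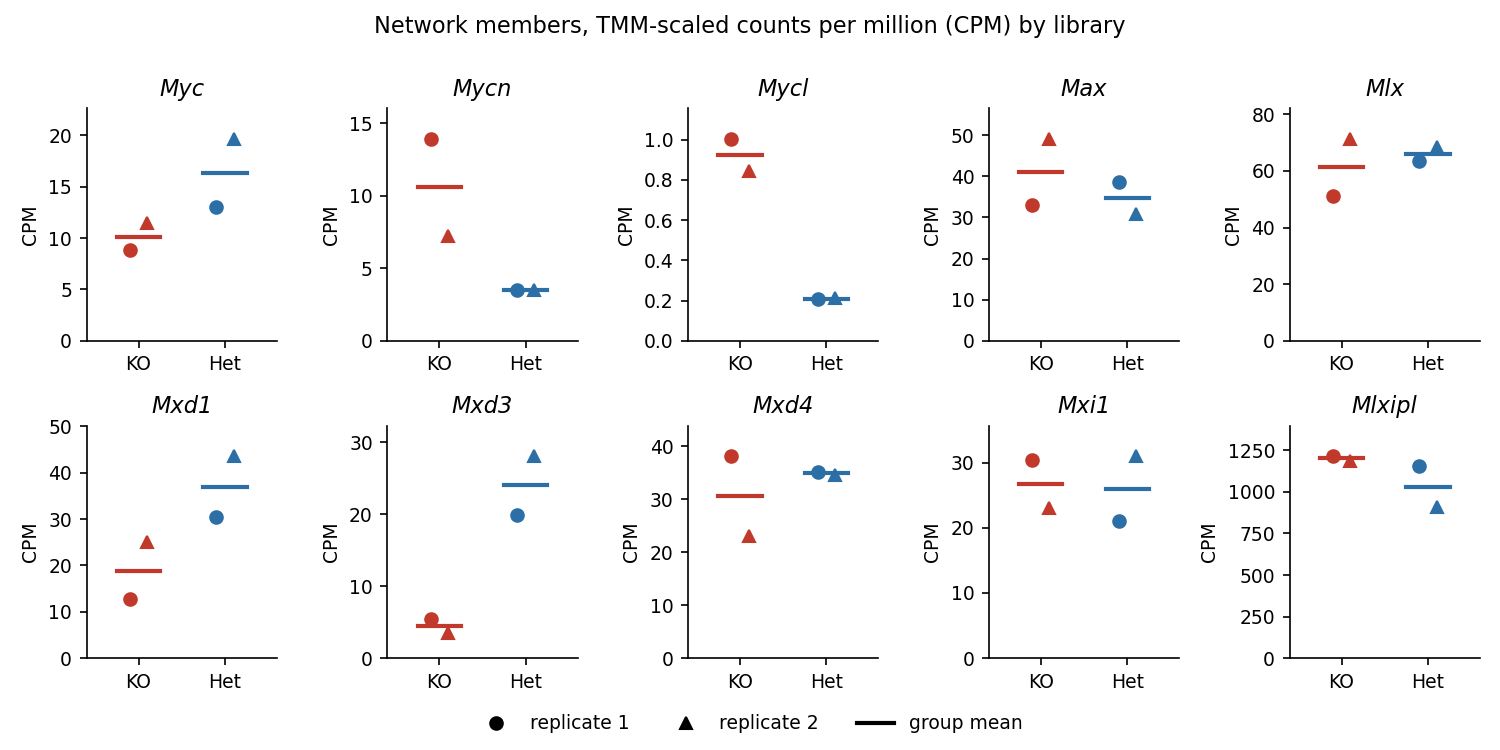
TMM-scaled CPM of the 10 members (vertical axes, each starting at 0) in the KO-labelled (red) and heterozygous (blue) libraries, with circles for replicate 1, triangles for replicate 2 and bars for the mean of 2 libraries. Mxd3 sits at 5.42 and 3.56 CPM under the KO label and at 19.96 and 28.1 CPM under the heterozygous label, and Max, Mlx, Mxd4 and Mxi1 overlap between labels.

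Among the activators that pair with MAX, both KO-labelled libraries had less Myc and more Mycn and Mycl than both heterozygous ones, but no MYC gene passed the test. Myc, the broadly expressed member of the family (ENSMUSG00000022346.15, chromosome 15, 61985391 to 61990374, GRCm38, plus strand), had 291 and 366 counts in the KO-labelled libraries and 505 and 649 counts in the heterozygous ones. Its level was 8.86 and 11.4 CPM under the KO label and 13.0 and 19.6 CPM under the heterozygous label. Both KO-labelled libraries were below both heterozygous ones, by a smaller margin than the spread within the heterozygous label. Myc averaged 10.1 ± 1.82 CPM under the KO label and 16.3 ± 4.67 CPM under the heterozygous label (SD, n = 2 each), a log2 fold change of -0.69 (SE 0.31, adjusted p = 0.322 by edgeR). Leaving out heterozygous replicate 2 brought it to -0.38.

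Mycn, the MYC gene best known from embryonic and neural progenitors (ENSMUSG00000037169.15, chromosome 12, 12936093 to 12941914, minus strand), stood the other way. It had 457 and 232 counts in the KO-labelled libraries and 135 and 116 counts in the heterozygous ones, which is 13.9 and 7.24 CPM against 3.49 and 3.51 CPM. The KO-labelled libraries differed from each other by 1.92 times, and both lay above the heterozygous pair, whose levels were nearly equal. The mean was 3.02 times as high under the KO label (10.6 ± 4.72 CPM, against 3.499 ± 0.0179 CPM under the heterozygous label, SD, n = 2 each), with a log2 fold change of 1.596 (SE 0.42, edgeR unadjusted p = 0.00623, adjusted p = 0.110). The call depended on the tool and on KO replicate 1: the adjusted p was 0.0154 by DESeq2, and by edgeR it was 0.257 with a log2 fold change of 1.02 without KO replicate 1 and 0.0189 with 1.99 without KO replicate 2. The Mycn promoter is shown because it was the 1 of the 12 member promoters with a match to the E2F motif, searched as TTTCCCGC or TTTGGCGC on both strands and found in 1.56% of all promoters. It held 2 matches, in capitals, which began 183 and 168 bases before the start (chr12:12941787-12942086, minus strand).
Mycn: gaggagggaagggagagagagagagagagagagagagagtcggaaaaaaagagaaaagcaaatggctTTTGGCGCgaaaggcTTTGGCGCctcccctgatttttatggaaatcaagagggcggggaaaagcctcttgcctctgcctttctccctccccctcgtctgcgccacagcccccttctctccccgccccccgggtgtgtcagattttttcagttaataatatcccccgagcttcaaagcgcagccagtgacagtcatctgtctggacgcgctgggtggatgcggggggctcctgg
The match does not show that an E2F factor acts there.

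Mycl, the least abundant of the MYC genes here (ENSMUSG00000028654.13, chromosome 4, 122995652 to 123002485, plus strand), had 33 and 27 counts in the KO-labelled libraries and 8 and 7 counts in the heterozygous ones. In CPM this was 1.005 and 0.843 against 0.207 and 0.212. The heterozygous counts were below the filter's minimum of 10, so Mycl was tested only because it is high under the KO label. Its separation between labels is therefore given as description. The exact Poisson intervals of the libraries (95%, counting error only) ran from 0.692 to 1.41 and from 0.556 to 1.23 CPM under the KO label. Under the heterozygous label they ran from 0.0892 to 0.407 and from 0.0852 to 0.437 CPM. These intervals leave out the spread between libraries, and the filter let Mycl in through its high label. Their separation is therefore no test of a difference. The log2 fold change of 2.12 did not pass (SE 0.94, adjusted p = 0.314 by edgeR), and it was 0.67 by limma-trend with a pseudocount of 1.

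Per exon length the sum of the MYC family overlapped between labels, while the shares of its genes did not. The shares follow from the levels given above, where no MYC gene passed, and are not a separate result. Of all tested genes, 49.0% did not overlap between labels. The family sum was 7.73 and 6.61 RPKM in the KO-labelled libraries and 5.91 and 8.35 RPKM in the heterozygous ones, which overlap. Myc made up 42.2% and 63.6% of that sum under the KO label, against 81.2% and 86.6%. Mycn made up 54.6% and 33.2%, against 17.9% and 12.8%. The ratio of Mycn to Myc in RPKM was 1.30 and 0.523 in the KO-labelled libraries and 0.220 and 0.147 in the heterozygous ones. This ratio is taken within a library and does not depend on the scaling between libraries. Mycn exceeded Myc in KO replicate 1 and in no other library.

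**Figure D2:**
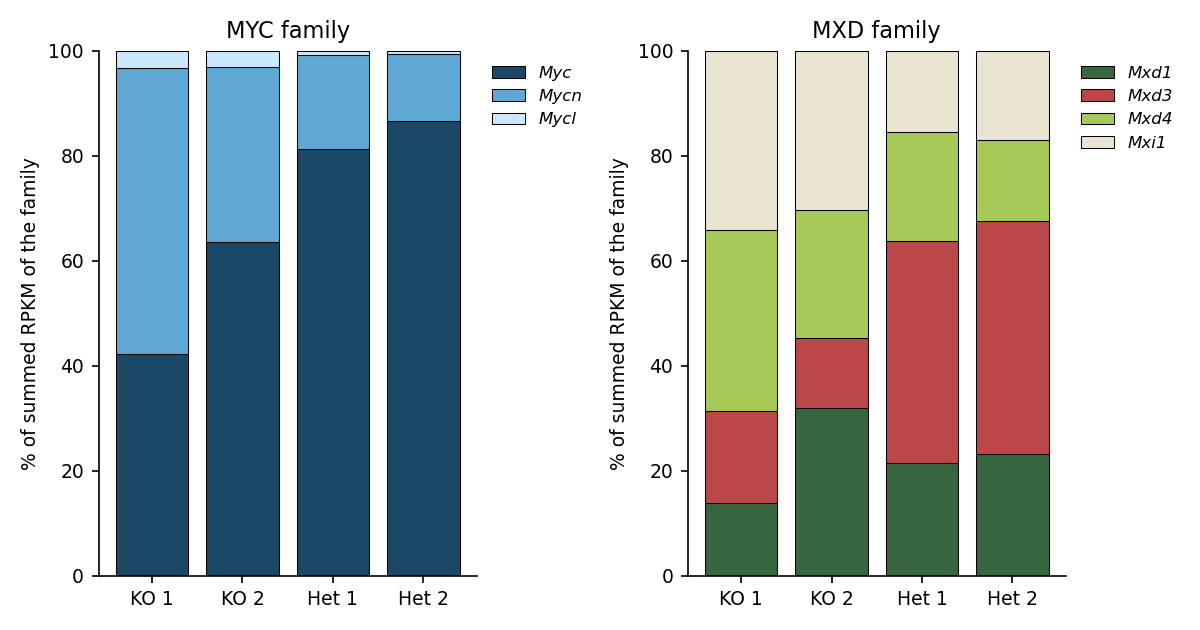
Share of each gene in the summed RPKM of its family (vertical axes, percent), by library, with the MYC family on the left and the MXD family on the right. Mycn takes 54.6% and 33.2% of the MYC family under the KO label against 17.9% and 12.8% under the heterozygous label, and Mxd3 takes 17.5% and 13.5% of the MXD family against 42.2% and 44.5%.

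The shared partners did not separate the labels. Max, the obligate partner of the MYC and MXD proteins (chromosome 12, 76937269 to 76962201), was at 33.0 and 49.1 CPM in the KO-labelled libraries and at 38.6 and 30.8 CPM in the heterozygous ones. KO replicate 1 lay between the heterozygous libraries, and the log2 fold change was 0.24 (SE 0.24, adjusted p = 0.682 by edgeR). Mlx, the partner of ChREBP and MondoA (chromosome 11, 101087277 to 101092207), was at 51.3 and 71.3 CPM under the KO label, a range that encloses the 63.6 and 68.5 CPM of the heterozygous label. Its log2 fold change was -0.11 (SE 0.20, adjusted p = 0.843 by edgeR). Exons of Mlx overlap 385 bases of Psmc3ip on the other strand, and since the library kit does not mark strand, reads in that stretch cannot be assigned. Psmc3ip was low (2.71 and 1.65 CPM under the KO label, 6.61 and 6.51 CPM under the heterozygous label). In RPKM, Mlx was 2.80 and 2.61 times as abundant as Max in the KO-labelled libraries and 2.96 and 4.00 times in the heterozygous ones, and Max was 2.81 and 3.25 times as abundant as Myc, against 2.24 and 1.18 times.

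Of the MXD repressors, Mxd3 fell and the other 3 did not pass. Mxd3, which in mouse is known for expression in proliferating progenitors and in the S phase of the cell cycle, lies on chromosome 13 (ENSMUSG00000021485.14, 55325168 to 55329823, minus strand). It had 178 and 114 counts in the KO-labelled libraries and 773 and 928 counts in the heterozygous ones, which is 5.42 and 3.56 CPM against 19.96 and 28.1 CPM. The lowest heterozygous library was well above the highest library labelled KO. The mean of the heterozygous label was 5.35 times that of the KO label (4.49 ± 1.32 CPM under the KO label and 24.0 ± 5.75 CPM under the heterozygous label, SD, n = 2 each), and Mxd3 fell by 2.42 on the log2 scale (SE 0.33, adjusted p = 0.0182 by edgeR, lower in 2 of 2 libraries). Without heterozygous replicate 2 the call was lost (log2 fold change -2.16, adjusted p = 0.109), while the calls without each other library had adjusted p-values of 0.0223 or less. Exons of Mxd3 overlap 105 bases of Prelid1 on the other strand. Prelid1 was at 46.7 and 39.2 CPM under the KO label and 43.4 and 58.5 CPM under the heterozygous label, with a log2 fold change of -0.25 that missed the threshold (adjusted p = 0.617 by edgeR).

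The Mxd3 promoter is shown because Mxd3 is the member that passed (chr13:55329682-55329981, minus strand). Neither the E-box nor the E2F letters occurred in these 300 bases, so nothing is in capitals, and this says only that those letters are not in this window.
Mxd3: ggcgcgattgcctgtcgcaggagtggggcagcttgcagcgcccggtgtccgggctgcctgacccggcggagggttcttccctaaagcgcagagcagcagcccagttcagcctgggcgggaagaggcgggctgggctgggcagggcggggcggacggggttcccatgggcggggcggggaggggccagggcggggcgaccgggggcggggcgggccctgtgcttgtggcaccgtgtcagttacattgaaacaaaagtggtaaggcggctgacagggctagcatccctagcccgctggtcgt
Most genes of a cell division list also fell in the KO-labelled libraries. Of its 17 genes, 13 fell, 4 did not pass and 0 rose, against 1.34% lower over all tested genes. The median log2 fold change was -2.29, and they summed to 193 and 264 CPM under the KO label against 769 and 932 CPM. By edgeR, 0 of the 17 had an unadjusted p under 0.05 in the upward direction, and DESeq2 and limma-voom called 0 higher. The fall was in Mki67, a marker of cycling cells (log2 fold change -2.29), Aurkb, a mitotic kinase (-3.38), Mcm2 (-1.27) and Mcm3 (-1.79), which load onto replication origins, and Rrm2, which supplies deoxynucleotides (-1.50), among others. Of these 17 genes, 7 passed as lower without heterozygous replicate 1 and 0 without heterozygous replicate 2. Whether the level of Mxd3 depends on the number of dividing cells was not tested.

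Mxd1, a repressor known for rising as cells differentiate (chromosome 6, 86647042 to 86669161), was at 12.8 and 25.1 CPM in the KO-labelled libraries and at 30.4 and 43.6 CPM in the heterozygous ones. The labels did not overlap, but the KO-labelled libraries differed by 1.97 times. The log2 fold change of -0.97 did not pass (SE 0.34, edgeR unadjusted p = 0.0256, adjusted p = 0.216). It was -1.54 without KO replicate 2 and -0.59 without KO replicate 1. Mxd4 (chromosome 5, 34173883 to 34187720) was at 38.1 and 23.0 CPM under the KO label and 35.2 and 34.6 CPM under the heterozygous label, with a log2 fold change of -0.19 (SE 0.26, adjusted p = 0.778 by edgeR). Mxi1 (chromosome 19, 53310518 to 53375810) was at 30.4 and 23.0 CPM against 21.04 and 31.0 CPM, with a log2 fold change of 0.04 (SE 0.26, adjusted p = 0.965). Both overlapped between labels. Exons of Mxd4 overlap 514 bases of the antisense gene Gm42846 and those of Mxi1 overlap 194 bases of Gm10197, with the same limit.

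Per exon length the MXD family summed to 13.0 and 11.1 RPKM in the KO-labelled libraries and to 19.95 and 26.7 RPKM in the heterozygous ones. The sums did not overlap, as in 49.0% of all tested genes. They follow from the levels given above and are not a separate result. Mxd3 averaged 1.90 RPKM under the KO label and 10.1 RPKM under the heterozygous label. Mxd1 was lower without passing, and Mxd4 and Mxi1 overlapped between labels. Mxd3 was the most abundant of the 4 in both heterozygous libraries, with 42.2% and 44.5% of the sum, and made up 17.5% and 13.5% of it under the KO label. Mxi1 made up 34.2% and 30.3% under the KO label, against 15.5% and 17.1%. Its own level overlapped between labels (4.45 and 3.37 RPKM against 3.08 and 4.54 RPKM), so the larger share reflects the smaller sum.

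**Figure D3:**
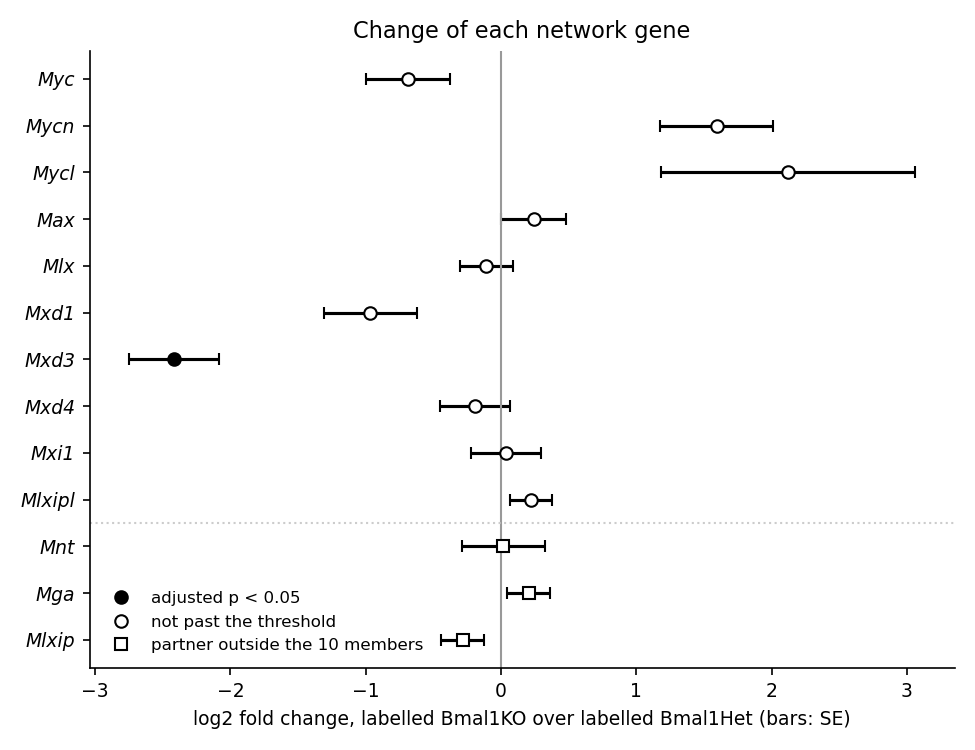
Log2 fold change of the KO-labelled libraries over the heterozygous ones (horizontal axis, bars are SE from edgeR's fit with 2 libraries per label) for the 10 members (circles) and for Mnt, Mga and Mlxip (squares). The filled circle is Mxd3 at -2.42, the member past the threshold, and Mycl has the widest error at 0.94.

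Mlxipl, which encodes ChREBP, had the highest RPKM of the members in all 4 libraries and did not pass the test. It lies on chromosome 5 (ENSMUSG00000005373.13, 135089890 to 135138382, plus strand) and had 39914 and 37992 counts in the KO-labelled libraries and 44697 and 29963 counts in the heterozygous ones. In CPM this was 1215.2 and 1186 under the KO label, against 1154 and 907. Both KO-labelled libraries lay just above both heterozygous ones. The mean was 1201 ± 20.5 CPM under the KO label and 1031 ± 175 CPM under the heterozygous label (SD, n = 2 each), a log2 fold change of 0.22 (SE 0.16, adjusted p = 0.542 by edgeR). Without heterozygous replicate 2 it was 0.045. Exons of Mlxipl overlap 235 bases of the antisense gene Gm43500, whose reads cannot be told apart. RefSeq gives Mlxipl 2 start sites, and counts per gene do not tell its isoforms apart. Mlxip, which encodes MondoA, was at 65.7 and 56.0 CPM under the KO label and 76.6 and 71.5 CPM under the heterozygous label (log2 fold change -0.28, SE 0.16, adjusted p = 0.438 by edgeR). In RPKM, Mlxipl exceeded Mlxip by 27.8 and 31.8 times in the KO-labelled libraries and by 22.6 and 19.1 times in the heterozygous ones.

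In order of RPKM under the KO label, Mlxipl (217 ± 3.69 RPKM) was followed by Mlx (30.7 ± 7.09), Max (11.4 ± 3.17), Mxi1 (3.91 ± 0.767), Myc (3.73 ± 0.668), Mxd4 (3.60 ± 1.26), Mycn (3.21 ± 1.43), Mxd1 (2.67 ± 1.23), Mxd3 (1.90 ± 0.555) and Mycl (0.229 ± 0.0283). From Mxi1 down to Mxd3 each gene overlapped its neighbour in the range of its libraries, so their order is not resolved. Under the heterozygous label the order was Mlxipl (186 ± 31.6 RPKM), Mlx (33.0 ± 1.73), Mxd3 (10.1 ± 2.43), Max (9.65 ± 1.53), Myc (6.01 ± 1.72), Mxd1 (5.23 ± 1.32), Mxd4 (4.11 ± 0.0451), Mxi1 (3.81 ± 1.03), Mycn (1.06 ± 0.00542) and Mycl (0.0518 ± 0.000930), all SD with n = 2. There Mxd3 and Max, Myc and Mxd1, and Mxd4 and Mxi1 were the neighbours whose libraries overlapped. Mxd3 had rank 9 of the members under the KO label and rank 3 under the heterozygous label. With the longest transcript as the length, Max came before Mxd3 under the heterozygous label and Myc moved behind Mxd1 and Mxd4. Under the KO label Mxd4 then came before Mxi1 and Myc, and Mxd1 before Mycn.

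Of 3 further proteins of the network, Mnt, Mga and MondoA, 0 passed by edgeR, 0 had an unadjusted p under 0.05 and 0 passed by DESeq2 or limma-voom. Mnt, a repressor that pairs with MAX and antagonizes MYC, was at 8.07 and 11.0 CPM in the KO-labelled libraries and 9.97 and 8.81 CPM in the heterozygous ones. Mga, a large MAX partner of a Polycomb complex, was at 51.5 and 49.1 CPM against 44.5 and 42.6 CPM (log2 fold change 0.21, SE 0.16, adjusted p = 0.586 by edgeR). Genes of cooperating proteins gave few calls, but over all tested genes only 2.54% passed in either direction. Few calls in groups this small are thus no result about these genes. Of 12 SIN3, HDAC and NCOR corepressor genes 0 passed, 0 had an unadjusted p under 0.05, and DESeq2 and limma-voom called 0, with a median log2 fold change of 0.0043. Rbbp7 (0.26), Suds3 (0.36) and Rbbp4 (-0.19) had the smallest p-values. Of 12 coactivators and cofactors of MYC 0 passed by edgeR and by limma-voom. In that group 1 had an unadjusted p under 0.05, and the same number was called by DESeq2. Among the smallest p-values were those of Hcfc1 (-0.70, adjusted p = 0.105 by edgeR) and Cdk9 (0.26). Of 8 genes that control MYC protein stability, Aurka fell and 7 did not pass. Aurka, a mitotic kinase that also shields MYCN from degradation, was at 6.64 and 9.06 CPM in the KO-labelled libraries and at 38.4 and 43.5 CPM in the heterozygous ones (log2 fold change -2.38, SE 0.24, adjusted p = 0.0129 by edgeR, and 0.0557 without heterozygous replicate 2).

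Of 31 textbook target genes of MYC, all tested, 0 passed the threshold by edgeR, where 2.54% of all tested genes passed in either direction. At that share 0 calls in a list of this size do not set it apart. In that list 1 was higher and 2 were lower at an unadjusted p under 0.05, DESeq2 called 1 lower, limma-voom and limma-trend called 0, and the median log2 fold change was -0.077. The genes encode nucleolar proteins, translation factors and enzymes of polyamine and nucleotide synthesis. Ccnd2, the D-type cyclin of β-cells, was at 680 and 670 CPM in the KO-labelled libraries and 954 and 1125 CPM in the heterozygous ones, and came closest (log2 fold change -0.62, SE 0.14, adjusted p = 0.0771 by edgeR). Srm, the spermidine synthase gene, was at 123 and 163 CPM against 176 and 211 CPM (-0.44, adjusted p = 0.288 by edgeR), and Ldha, lactate dehydrogenase A, at 3.62 and 8.99 CPM against 2.76 and 1.66 CPM (1.51, adjusted p = 0.246).

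Several textbook target genes of ChREBP rose in the KO-labelled libraries while Mlxipl itself did not pass. Of 21 listed genes 19 were tested, and of these 4 rose, 0 fell and 15 did not pass, against 1.20% higher over all tested genes. The median log2 fold change was 0.70, and the list summed to 10016.9 and 8736 CPM under the KO label against 6129.6 and 4807 CPM. In the downward direction 1 had an unadjusted p under 0.05, 1 was called by DESeq2 and 0 by limma-voom. KO-labelled libraries lay above the heterozygous ones for 11 of the 19, against 25.3% of all tested genes. Arrdc4, an arrestin-like gene that curbs glucose uptake, was at 267 and 264 CPM in the KO-labelled libraries and at 149 and 105 CPM in the heterozygous ones (log2 fold change 1.06, SE 0.19, adjusted p = 0.0371 by edgeR). Acly, the ATP citrate lyase gene that feeds lipid synthesis, was at 5746 and 5132 CPM against 3374 and 3155 CPM (0.74, SE 0.13, adjusted p = 0.0371). Rgs16, a regulator of G-protein signalling, was at 396 and 355 CPM against 209 and 137 CPM (1.12, SE 0.21, adjusted p = 0.0481).

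Other genes of the list did not pass, and they are named here after their values were seen. Txnip, the thioredoxin-interacting protein gene, was at 2189 and 1705 CPM under the KO label against 1417 and 540 CPM (log2 fold change 0.99, SE 0.40, adjusted p = 0.270 by edgeR). Pklr, the liver-type pyruvate kinase gene, was at 50.9 and 25.4 CPM against 19.1 and 9.38 CPM (1.42, adjusted p = 0.155). The fatty acid synthesis genes of the list were mixed. Acaca was at a log2 fold change of 1.52 (adjusted p = 0.0869 by edgeR), Fasn at -0.19 and Elovl6 at 0.014. Scd2 was lower, at 181 and 174 CPM under the KO label against 254 and 320 CPM (-0.69, SE 0.16, adjusted p = 0.0795 by edgeR). Heterozygous replicate 2 was the library with the lowest level of Arrdc4, Acly and Rgs16. Without it 0 of the list passed and the adjusted p-values of Arrdc4, Acly and Rgs16 were 0.208, 0.217 and 0.213. Acly also lost its call without heterozygous replicate 1 (adjusted p = 0.103) and, with all libraries, by limma-trend (0.111), which called 3 of the list. Rgs16 lost its call without KO replicate 1 (adjusted p = 0.0673).

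**Figure D4:**
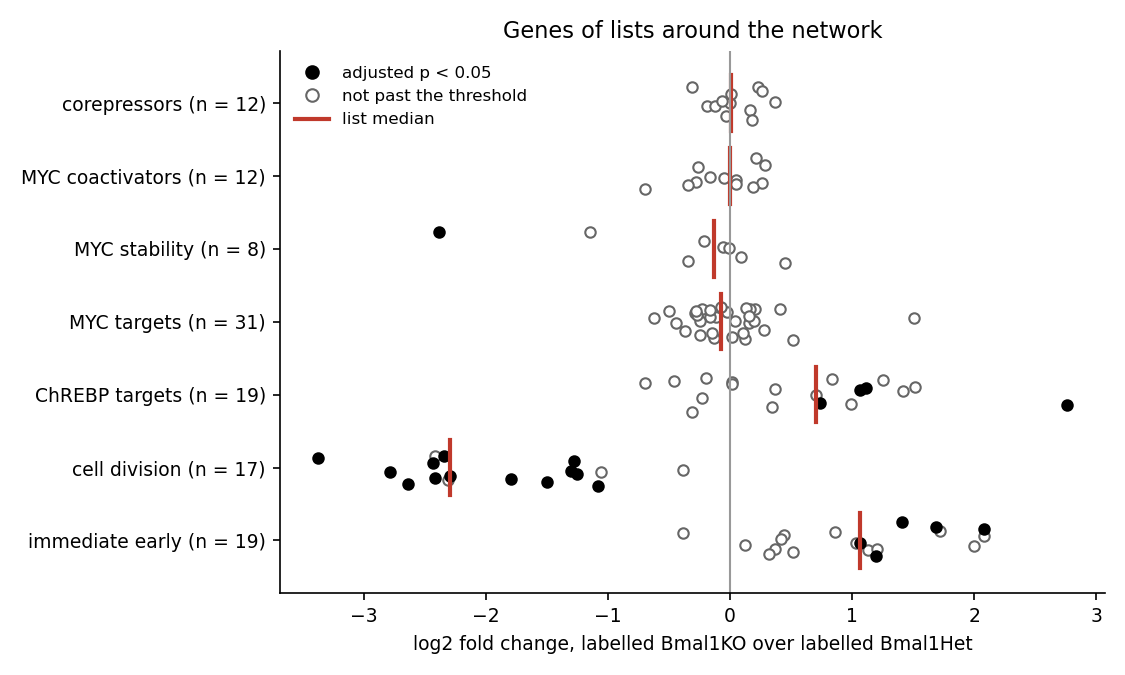
Log2 fold change of the KO-labelled libraries over the heterozygous ones (horizontal axis) for each tested gene of 7 lists around the network, 1 point per gene, filled where the adjusted p is under 0.05, with a red bar at the list median. Medians lie at 0.70 for ChREBP targets, -0.077 for MYC targets, -2.29 for cell division genes and 1.06 for immediate early genes, with the corepressor and coactivator medians near 0.

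Myc is itself an immediate early gene, and while it did not pass, 5 other such genes rose in the KO-labelled libraries. Of 21 listed immediate early and dissociation stress genes 19 were tested, and of these 5 rose, 0 fell and 14 did not pass, against 1.20% higher over all tested genes. The median log2 fold change was 1.06. At an unadjusted p under 0.05 by edgeR, 9 were higher and 0 were lower. DESeq2 called 7 higher and limma-voom 6, and both called 0 lower. Fos, a subunit of AP-1, was at 365 and 163 CPM under the KO label and 54.0 and 71.3 CPM under the heterozygous label (log2 fold change 2.08, SE 0.36, adjusted p = 0.0358 by edgeR). The others that rose were Egr1 (1.69), Ier2 (1.41), Junb (1.20) and Zfp36 (1.06). The count was 9 without KO replicate 2, 1 without heterozygous replicate 1 and 0 without heterozygous replicate 2.

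Genes whose pattern over the 4 libraries was most like that of Myc or Mlxipl were sought by the Euclidean distance between centred log2 CPM values among 12255 genes with a mean of at least 1 CPM. For Myc these were Pbdc1 (distance 0.0717), Helz2 (0.0874) and Ppil1 (0.0933), and for Mlxipl they were Man2c1 (0.0177), Prpf39 (0.0181) and Xab2 (0.0314). The distances are a description over 4 libraries.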

How the data were processed

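Sorted β-cells gave 4 libraries, with RNA from the RNeasy Plus Micro kit and cDNA from the SMART-Seq v4 kit, per the labels' protocols. STAR, edgeR and mm10 are listed in the submitters' processing notes without versions; no source used here gives the counting tool, its strand setting or its annotation. The authors deposited whole-number counts per gene symbol, used for all main tests. They also deposited a scaled table, treated as a signal, whose values, divided by 1 constant per library, equal the deposited counts for 99.993% of 14649 genes. At a tolerance of 0.01, 100% of its values came out as whole reads, and edgeR on those reads, an alternative chosen after seeing the data, called 176 genes higher and 196 lower, as many as from the deposited counts.

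Genes with low counts were left out with filterByExpr (at least 10 counts, total of at least 15), and the rest were normalized by TMM and tested 2-sided in edgeR 4.0.16 (R 4.3.3) with label as the only term. Replicates differed by more than sampling noise (chi-square per degree of freedom 63.9 within KO and 42.9 within heterozygous). Gene positions and exon lengths are from GENCODE M21 (GRCm38, the assembly of mm10). RPKM is TMM-scaled CPM per kilobase of the union of exons. Reads carry no molecular identifiers, so intervals cover counting error only, and a count of 3 equals 0.0775 to 0.0937 CPM.

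The members, gene lists and alternatives were chosen with earlier results of these data known. All members are named, with Arntl, Mnt, Mga and Mlxip, from each list up to 5 genes past the threshold or, where none passed, the 3 of smallest p, plus the 3 genes nearest in pattern to Myc and to Mlxipl. Alternatives were other scalings, filters, DESeq2 1.42.0, limma 3.58.1 (voom, and trend on the scaled table with a pseudocount of 1), a replicate block, leaving out each library and a threshold of 0.1. Some genes that this rule selects are not reported here. Markers of endothelial, duct, other endocrine, Schwann and erythroid cells were also summed.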

Additional observations from a re-analysis of the deposited data

How the results depend on the processing

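Leaving out 1 library gave 17 to 404 genes higher and 8 to 422 lower over all genes, 0 to 1 members higher and 0 to 2 lower, and 0 to 15 list genes higher and 0 to 16 lower, against 176, 196, 0, 1, 9 and 14 with all libraries. The lowest counts, 17 and 8, were those without heterozygous replicate 2, and in each of these fits the lone library of a label is assumed to vary like the other label's. Over all genes the counts higher and lower were 430 and 378 with no filter, 624 and 562 by DESeq2 and 378 and 350 at a threshold of 0.1, and 266 were higher at a mean of 5 CPM. With no filter and by DESeq2 1 member, Mycn, was higher, and with no filter 14 list genes were. The replicate numbers are shared by name only: deviations of same-numbered libraries had a Pearson correlation of -0.020 across genes. With the replicate block 313 genes were higher and 278 lower, and 2 members were lower, Mxd3 and Mxd1 (adjusted p = 0.0490). The cause of these shifts was not tested. Without each library in turn the log2 fold change ranged from -0.076 to 0.48 for Max, -0.63 to 0.13 for Mxd4, -0.22 to 0.33 for Mxi1, -0.37 to 0.086 for Mlx and -0.22 to 0.20 for Mnt, so these have no settled direction, and Mnt was at -0.0029 by limma-voom. Myc, Mycn, Mycl, Mxd1, Mxd3 and Mlxipl kept their sign in every alternative run. These are the 6 members whose libraries did not overlap between labels, as in 49.0% of all tested genes. Leaving out 1 library could therefore hardly reverse them, and the kept sign adds nothing to that separation. Mycl, at 7 to 33 counts, was tested only because it is high under the KO label, and gave no value with a mean of at least 5 CPM.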

Other observations

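Markers of other islet and pancreas cells that the text above does not give differed between libraries as follows. The 8 markers of α, δ and PP cells summed to 4551.8 and 9396 CPM in the KO-labelled libraries and to 3926 and 3634 CPM in the heterozygous ones, and Irx2, a transcription factor of α-cells, rose as the 1 of 8 that passed by edgeR. The 7 duct markers summed to 569 and 548 CPM, against 742 and 818 CPM, of which Krt7 alone had 368 and 397 CPM, against 567 and 663 CPM. Of the 6 duct markers tested, 4 had a log2 fold change above 0, and their median was 0.48. The 8 endothelial markers summed to 40.2 and 17.7 CPM, against 14.5 and 10.9 CPM, with Emcn and Flt1 at 0 in KO replicate 2 and in heterozygous replicate 1. The 4 Schwann cell markers summed to 17.5 and 25.5 CPM, against 12.3 and 11.4 CPM, and of 5 erythroid markers the 3 in the table summed to at most 0.406 CPM in a library. Their part in the levels of the network genes was not tested.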
